A study of Mus musculus with 4 samples.

Results

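A set of 7 genes was followed by RNA in feeder fibroblasts exposed to fibroblast growth factor 2 (FGF2). They encode secreted proteins that build or modify the extracellular matrix without being collagens, and no protein was measured. The genes were the thrombospondins Thbs1 (NCBI gene 21825) and Thbs2 (21826), elastin Eln (13717), the lysyl oxidase Loxl1 (16949), the proteoglycans versican Vcan (13003) and decorin Dcn (13179), and the glycoprotein gene Ccdc80 (67896). Members were chosen by the NCBI gene number that follows 1 or 2 zeros in the probe identifier, which is an inferred reading of the identifier, and reverse-complement probes were left out. This gave 9 probes for 7 genes, with 2 probes each for Vcan and Dcn, of 46116 probes on the array. All 9 probes passed the filter on dim probes (a detection score of 0.99 or more on 3 or more arrays), as did 11763 probes in all.

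The cells were CF1 mouse embryonic fibroblasts (a primary culture from an outbred stock) that mitomycin C, a DNA crosslinker, had stopped from dividing. Per the labels they were plated at 55000 cells per square centimetre on gelatine-coated plastic, and the medium was changed on the following day to serum replacement medium for human embryonic stem cells, in which the cells stayed for 24 h. The control group had no added FGF2 and comprised 3 biological replicates, and the FGF2 groups received 4, 13 or 40 ng/ml, with 1 array per dose. The inactivation, the gelatine and the medium were common to all groups, and the labels name neither the age of the embryos nor a sorting step.

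Thrombospondins are multimeric matricellular glycoproteins that modulate adhesion, proteases and growth factors rather than forming fibres. Elastin is secreted as tropoelastin, laid down on microfibrils and crosslinked by lysyl oxidases, among which LOXL1 is tied to elastic fibre maintenance in mice. Versican carries chondroitin sulfate chains and binds hyaluronan to form a hydrated, loose matrix, whereas decorin is a small leucine-rich proteoglycan that coats collagen fibrils and binds TGF-beta.

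Median signal was 102.5 to 113.6 on the 6 arrays, and 11195 to 11698 probes were detected on each. Of the 14 fibroblast markers, 6 had a named probe, and all 6 (Col1a1, Col1a2, Col3a1, Fbln2, Prrx1 and S100a4) were detected on every control array. Their summed normalised signal was 35191 to 38329 on the controls and 17565 to 21458 with FGF2. The collagens Col1a1 (4.34-fold), Col1a2 (4.94-fold) and Col3a1 (2.78-fold) fell most among them and Fbln2 fell 1.26-fold, whereas Prrx1 (log2 -0.35, adjusted p = 0.0546) and S100a4 (-0.03, adjusted p = 0.841) did not pass in limma. The endothelial markers Pecam1 and Emcn were undetected on all arrays, as were Ptprc, Cd68, Csf1r and Itgam of the leukocyte list, Krt8 and Krt19 of the epithelial list and Gfap, Map2, Snap25, Sox2 and Syp of the neural list. Summed signals ran from 291 to 301 on the controls and 292 to 299 with FGF2 for 2 endothelial probes, and from 835 to 851 and 772 to 785 for 5 leukocyte probes, of which Lyz2 was detected. They ran from 589 to 595 and 609 to 619 for 4 epithelial probes, with Krt18 and Cldn4 detected on at least 1 array. For 6 neural probes the ranges were 874 to 878 and 869 to 875, with Tubb3 detected, and for 3 adipocyte and cartilage probes 500 to 526 and 447 to 458, with Lpl and Col2a1 detected on at least 1 array. Of the markers detected outside the fibroblast list, Lyz2 (adjusted p = 0.00147) and Lpl (0.00556) passed as lower in limma and Krt18 (0.0112) as higher. Krt18 was undetected on the controls, and Lpl was detected on only 1 FGF2 array. Krt18 thus passed the filter only through the FGF2 arrays, which favoured a rise in advance. Cldn4 and Tubb3 did not pass, and Col2a1 was not tested. None of the 8 skeletal muscle markers had a named probe. The part of these shifts in the results below was not tested, and in such bulk RNA fewer cells of a type and less RNA per cell cannot be told apart.

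The question put to the members was whether FGF2 changed them, taking the 3 doses together against the 3 controls. With 1 array per dose, differences between doses count as spread in this comparison, in its standard errors and its adjusted p. Of the 7 genes, 6 had a probe that passed the threshold: Ccdc80, Thbs2, Thbs1, Eln and Vcan fell and Dcn rose on its dimmer probe, while Loxl1 did not pass. By probe, 7 of 9 passed at an adjusted p under 0.05 in limma, 6 lower and 1 higher. Across all tested probes 36.8% passed, with 18.4% lower and 18.4% higher. The control and FGF2 arrays did not overlap for any of the 9 probes, which was the case for 53% of all tested probes. Signals below are the normalised log2 signal of 1 probe, and they are compared between arrays and not between probes.

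**Figure D1:**
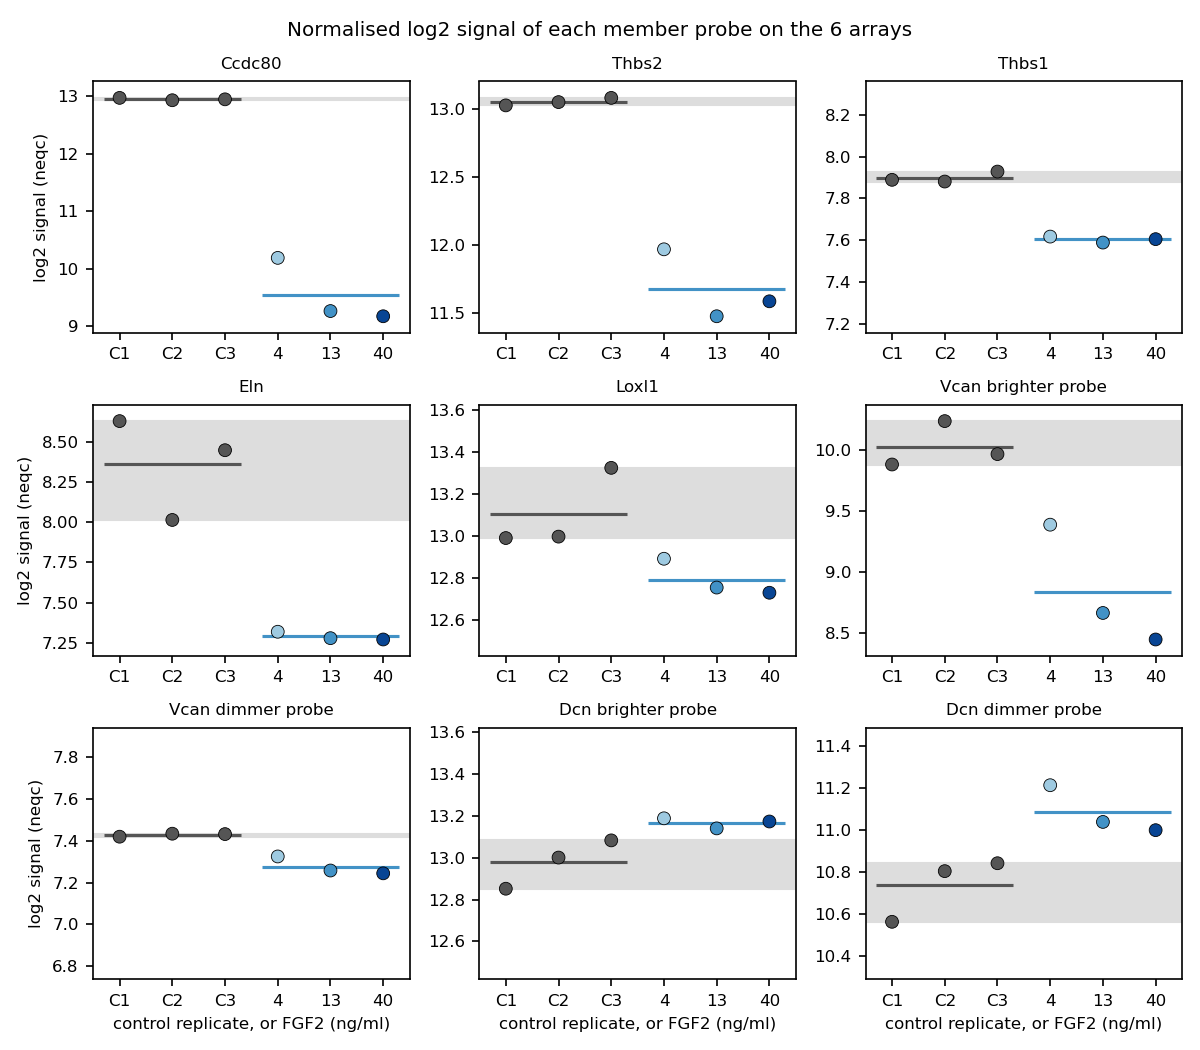
Each panel plots the normalised log2 signal of 1 member probe on the y axis for control replicates 1 to 3 (grey, C1 to C3) and for the FGF2 arrays at 4, 13 and 40 ng/ml (blue) on the x axis; horizontal lines are group means, the grey band is the range of the controls, and the y ranges differ between panels. All FGF2 points lie below the band for Ccdc80, Thbs2, Thbs1, Eln, Loxl1 and both Vcan probes and above it for both Dcn probes. The 4 ng/ml point is the least lowered for every probe that lies below the band.

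Ccdc80, a secreted glycoprotein of the matrix with a known role in adipocyte differentiation in mouse cell lines, changed most among the members on the normalised scale. Before normalisation its signal was 8012.9, 7652.8 and 8546 on control replicates 1 to 3, and 1462.8, 987.5 and 842.2 at 4, 13 and 40 ng/ml. On the normalised scale the controls stood at 12.97, 12.93 and 12.95 and the FGF2 arrays at 10.19, 9.26 and 9.17, so the controls lay close together and the lowest dose stood between them and the higher doses. The mean was 12.95 ± 0.02 without FGF2 (SD, n = 3) and 9.54 ± 0.56 with it (SD over the 3 doses, 1 array each). The log2 change was -3.41 ± 0.28 (with the standard error of the fitted model), or 10.6-fold, with an adjusted p of 0.00105 in limma. Of the 11763 tested probes 8 fell by more. Against the 3 controls the change was -2.76 at 4 ng/ml (adjusted p = 0.000932 in limma), -3.69 at 13 ng/ml (0.000336) and -3.78 at 40 ng/ml (0.000315). The largest of these was 92 times the range of the controls, which was only 0.041 log2 units over 3 normalised arrays.

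Both thrombospondins fell. Thbs2, whose loss in mice is known to disturb collagen fibril assembly, had log2 signals of 13.02, 13.05 and 13.08 on the controls and 11.97, 11.47 and 11.58 at 4, 13 and 40 ng/ml. Every FGF2 array was thus more than 1 log2 unit below the lowest control, with 13 and 40 ng/ml close together. The fall was 1.38 ± 0.13 (2.59-fold, adjusted p = 0.0015), and 145 tested probes fell by more.

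Thbs1, known as an activator of latent TGF-beta and a ligand of the receptors CD36 and CD47, had log2 signals of 7.89, 7.88 and 7.93 on the controls. With FGF2 they were 7.62, 7.59 and 7.61, a narrow step down that was alike at the 3 doses. The change was -0.30 ± 0.03 (1.23-fold lower, adjusted p = 0.00124). Its change was -0.62 with the robust estimate of the control spread that is described for elastin. The signal before normalisation went from 395.9 to 460.3 on the controls to 281 to 309.3 with FGF2, where the median negative control lay at 94.8 to 104, so Thbs1 was a dim probe. Each array's change of Thbs2 from its control mean, minus that of Thbs1, was -0.80, -1.27 and -1.17 at 4, 13 and 40 ng/ml, and -0.02, 0.02 and -0.00 for the controls. The mean of this difference was -1.08 on the log2 scale, and -0.70 with the robust estimate. The exact two-sided permutation p was 0.1, which is the smallest that 20 splits of 3 against 3 arrays can give. This test could not have passed the threshold whatever the values, so no conclusion is drawn from it. On each FGF2 array Thbs2 was lowered more than Thbs1, and the difference lay outside the range of the controls. Its size depended on the background correction.

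Elastin, the core of elastic fibres, fell on every FGF2 array to near the background. Its signal before normalisation was 664, 443 and 666.5 on the controls and 177.3, 163.4 and 145.5 at 4, 13 and 40 ng/ml, with detection scores of 0.999, 0.996 and 0.991 on the latter. On the normalised scale the controls were at 8.63, 8.01 and 8.45, with replicate 2 lowest, and the FGF2 arrays at 7.32, 7.28 and 7.27. The fall was 1.07 ± 0.16 (2.11-fold, adjusted p = 0.0053) and held in each of 15 alternatives (adjusted p from 5.96e-06 to 0.0259). Its size depended on the background correction. The standard deviation of the negative controls that was inferred from the detection scores was 224 to 263 signal units, whereas the signal at the score of 1 standard deviation lay only 14.2 to 17.6 units above the control median. With this smaller, robust spread Eln fell 6.17-fold (log2 -2.63 ± 0.18, adjusted p = 2.84e-05), and normexp without control probes (offset 16) gave 4.85-fold. In the authors' deposited table its log2 ratios to the control mean were -2.64, -3.03 and -3.15 at the 3 doses. Those of Ccdc80 were -2.49, -3.20 and -3.27 there, so Eln fell more at 4 ng/ml and Ccdc80 more at 13 and 40 ng/ml.

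Loxl1, which crosslinks elastin, did not pass. Its log2 signals were 12.99, 13.00 and 13.33 on the controls and 12.89, 12.75 and 12.73 with increasing dose, so control replicate 3 stood above the others and the 4 ng/ml array just below replicates 1 and 2. The change was -0.31 ± 0.10 (adjusted p = 0.0659), and the adjusted p ranged from 0.0264 to 0.188 over 15 alternatives, in 3 of which it was under 0.05. Without control replicate 3 the change was -0.20 (adjusted p = 0.0654).

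Versican fell on both of its probes. The brighter probe had log2 signals of 9.88, 10.24 and 9.97 on the controls and 9.39, 8.67 and 8.45 at 4, 13 and 40 ng/ml, which put the lowest dose between the controls and the higher doses. It fell by 1.20 ± 0.26 (2.29-fold, adjusted p = 0.0178). The dimmer probe had signals before normalisation of 224.5, 225.9 and 247.8 on the controls and 179.9, 152.5 and 133.3 with FGF2, and its score was at least 0.99 on all 3 controls but on only 1 of the 3 FGF2 arrays. This probe passed as lower (log2 -0.15 ± 0.03, adjusted p = 0.0133), but the size is not measured where the probe was not detected, at 13 and 40 ng/ml. With the robust spread the brighter probe fell 1.94-fold (log2 -0.95 ± 0.19, adjusted p = 0.00448), with changes of -0.50, -1.08 and -1.28 at 4, 13 and 40 ng/ml. The dimmer probe also passed with that spread (fitted log2 -0.98, adjusted p = 0.00228), with the same limit on its size. The call of the brighter probe ended without control replicate 2 (adjusted p = 0.0598), control replicate 3 (0.0506), the 13 ng/ml array (0.0608) and the 40 ng/ml array (0.0513). With no filter on dim probes the call of the brighter probe ended too (adjusted p = 0.0583 in limma). That of the dimmer probe ended without the 13 ng/ml array (0.0507) and the 40 ng/ml array (0.0521).

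Decorin was higher with FGF2 on both of its probes, of which only the dimmer passed. Its brighter probe had log2 signals of 12.85, 13.00 and 13.08 on the controls and 13.19, 13.14 and 13.17 with FGF2, and did not pass (change 0.19 ± 0.06, adjusted p = 0.0623). Its dimmer probe had 10.56, 10.80 and 10.84 on the controls and 11.21, 11.04 and 11.00 at 4, 13 and 40 ng/ml, with control replicate 1 lowest and 4 ng/ml highest. It rose by 0.35 ± 0.09 (1.27-fold, adjusted p = 0.0361), and 10.1% of the tested probes rose by more. Both probes were higher with FGF2 in all 15 alternatives. The call of the dimmer probe ended in each of the 6 fits that left out 1 array (adjusted p = 0.0503 to 0.0794), with arrays scaled to a common median (0.0717) and with no filter on dim probes (0.109). The brighter probe passed in only 1 of 15 alternatives, the fit without control replicate 3 (log2 0.24, adjusted p = 0.036).

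RefSeq promoter entries (GRCm38.p6) were matched only for Thbs2 and Vcan, 2 of the 7 members and 2 of those that fell. They are shown because they were the only entries matched, and were not picked by their response. Each is the 250 bases before the annotated start, read 5′ to 3′ on the minus strand, at chr17:14694263-14694512 for Thbs2 and chr13:89742513-89742762 for Vcan. Capitals mark matches on either strand to 5 short motifs, namely a TATA box (TATAAA), a GC box (GGGCGG), an AP-1 site (TGANTCA), an ETS site (CCGGAA) and a SMAD box (CAGACA), none of which overlapped another here.
Thbs2: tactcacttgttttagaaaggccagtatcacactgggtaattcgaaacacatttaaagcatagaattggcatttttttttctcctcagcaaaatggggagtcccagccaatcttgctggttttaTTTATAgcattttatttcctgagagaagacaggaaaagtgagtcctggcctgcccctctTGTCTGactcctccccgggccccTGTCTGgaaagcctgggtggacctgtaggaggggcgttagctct
Vcan: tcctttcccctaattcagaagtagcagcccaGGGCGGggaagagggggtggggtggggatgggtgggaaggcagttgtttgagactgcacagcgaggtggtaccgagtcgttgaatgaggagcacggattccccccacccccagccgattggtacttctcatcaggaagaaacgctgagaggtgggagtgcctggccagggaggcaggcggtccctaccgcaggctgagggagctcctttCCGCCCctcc
The Thbs2 window held 2 SMAD box matches, both on the other strand as TGTCTG and ending 62 and 39 bases before the start, and 1 TATA box match on the other strand ending 121 bases before it. The Vcan window held 2 GC box matches, ending 214 and 5 bases before the start. Of 32851 promoter windows of the same length, 17.1% held the SMAD box, 12.4% the TATA box and 32.7% the GC box. No match to the AP-1 site (6.75% of windows) or the ETS site (12% of windows) was present in these letters. Of the bases, 46.8% were G or C for Thbs2 and 62.4% for Vcan, against a median of 52.4% over all windows. These matches describe letters and were not tested for binding.

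The next question was how the members varied with dose. At 4 ng/ml 3 of 9 probes passed against control (Ccdc80, Thbs2 and Thbs1), beside 13.9% of all tested probes. At 13 ng/ml 5 passed, beside 25.7%, and at 40 ng/ml 5 passed, beside 24.8%, in both cases the same 3 and both Vcan probes, the dimmer of which was not detected at these doses. The 3 comparisons share their controls, and each rests on 1 treated array that is assumed to vary like the controls. The log2 change at 4 ng/ml was 40.5% of that at 40 ng/ml for the brighter Vcan probe, 73.1% for Ccdc80 and 73.9% for Thbs2. It was 95.6% for Eln and 95.8% for Thbs1. The Eln share was taken near the background, where the size depended on the background correction. With the robust spread the changes of Eln were -2.39, -2.71 and -2.78 at 4, 13 and 40 ng/ml. Eln passed at no single dose with the inferred spread, but at each dose with the robust spread. For the dimmer Dcn probe the change at 4 ng/ml (0.48) was larger than at 40 ng/ml (0.26). From 13 to 40 ng/ml the further change was -0.22 for the brighter Vcan probe, -0.09 for Ccdc80 and 0.11 for Thbs2, where a single array per dose gives these steps no error. The slope per log2 of dose among the FGF2 arrays passed for 0 of 9 member probes in limma, and for 0 of 11763 probes (0%). Its unadjusted p was under 0.05 for 2 of the 9, Ccdc80 (slope -0.31 ± 0.07, adjusted p = 0.335) and the brighter Vcan probe (-0.28 ± 0.07, adjusted p = 0.349), beside 10.5% of all tested probes.

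**Figure D2:**
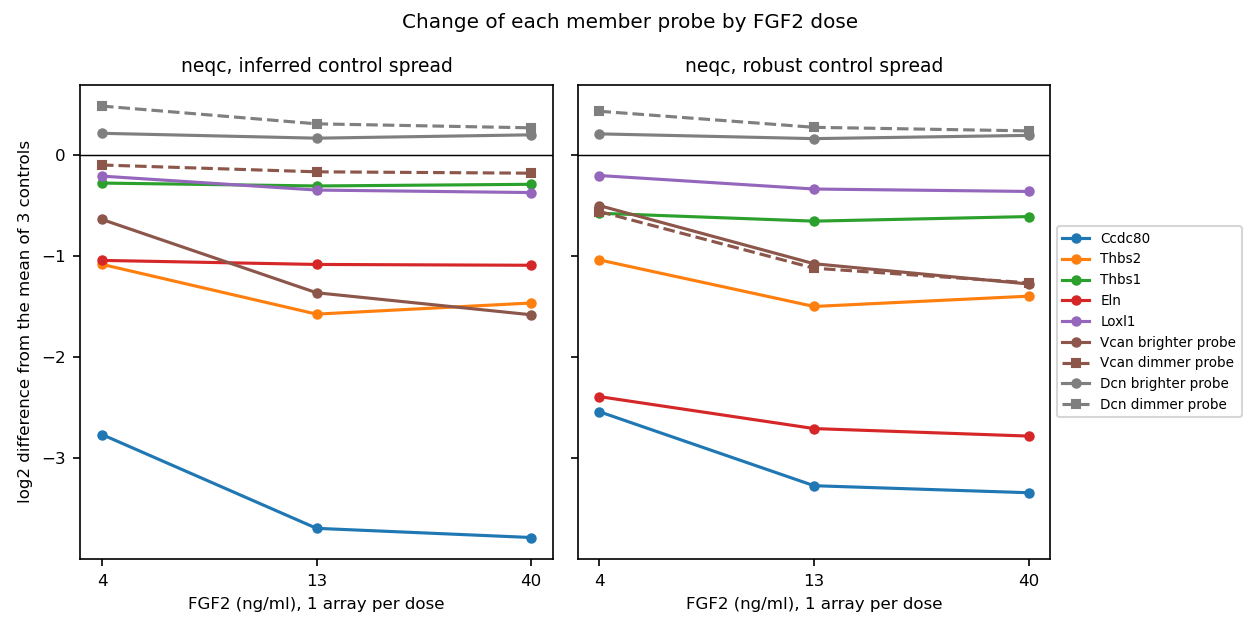
The y axis is the log2 difference of each FGF2 array from the mean of the 3 controls and the x axis the dose in ng/ml, evenly spaced, with 1 array per point; the left panel uses the inferred and the right panel the robust spread of the negative controls, and dashed lines are the dimmer probes of Vcan and Dcn. Ccdc80 is lowest throughout (-2.76 to -3.78 on the left), and the dimmer Vcan probe was not detected at 13 and 40 ng/ml, so its points there give no measured size.

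The size of some members depended on the background correction and scaling, of which 7 combinations were run. The log2 change of Thbs2 lay between -1.38 and -1.29 and that of Loxl1 between -0.31 and -0.30. Ccdc80 ranged from -3.46 (11.0-fold lower, with arrays scaled to a common median) to -2.94 (7.68-fold, without further background correction), and the brighter Vcan probe from -1.30 to -0.87 under the same settings. Eln ranged from -2.63 to -0.93, the dimmer Vcan probe from -0.98 to -0.13 and Thbs1 from -0.62 to -0.25, the weakest changes coming from neqc with an offset of 50. Each of these members stayed lower with FGF2 in all 7.

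**Figure D3:**
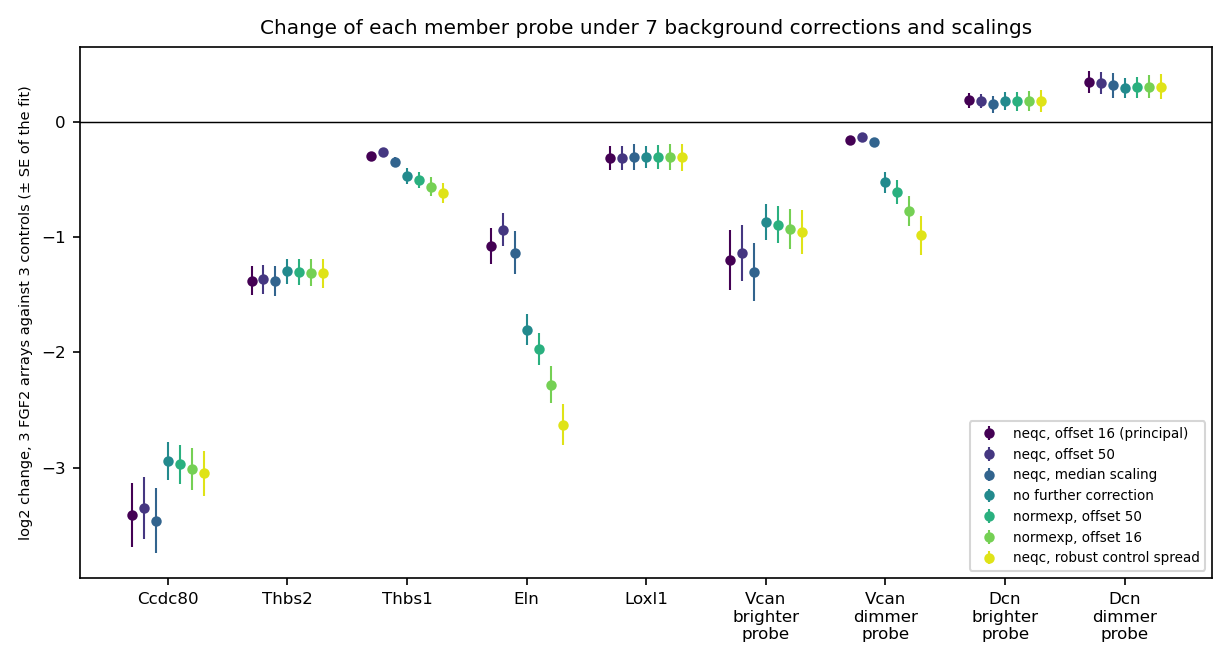
The y axis is the log2 change of the 3 FGF2 arrays against the 3 controls for each of the 9 member probes (x axis), with bars of ± SE of the fit and 1 colour for each of 7 background corrections and scalings. Thbs2, Loxl1 and the Dcn probes hold their value, and Eln spreads from -0.93 to -2.63.

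The members were then set beside other genes of the non-collagen matrix, of glycosaminoglycan synthesis and of receptors, grouped by role. Of 170 such genes 58 had a named probe and 31 were tested, of which 15 fell, 5 rose and 11 did not pass. Among those called, Postn (lower) and Itga6 (higher) passed the filter only through the group where each was high. The matrix lists alone held 21 of the 31, of which 13 fell, 3 rose and 5 did not pass, with a median log2 change of -0.34. The median log2 change of the 31 was -0.17, against 0.0044 over 3481 named genes tested, of which 18.7% fell and 19% rose. Among 4 elastic fibre proteins, Fbln1 (fibulin-1, -1.30 ± 0.25, adjusted p = 0.0131) and Fbln2 (fibulin-2, -0.34 ± 0.08, adjusted p = 0.0252) fell alongside elastin, Emilin2 passed as higher (adjusted p = 0.0349) and 1 did not pass. Emilin2 was detected on only 1 of the 3 controls, so its size was not measured, and its fitted log2 change was 0.10 with the inferred and 0.81 with the robust spread. Fbln2 also counts among the fibroblast markers above. The only other crosslinking enzyme tested, Loxl2, which is best known for acting on collagens, fell 2.57-fold (-1.36 ± 0.19, adjusted p = 0.00446), whereas Loxl1 did not pass; the difference between these enzymes was not tested.

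Other matricellular genes moved in both directions. Of 3 tested, Spp1 (osteopontin, log2 2.51 ± 0.03, adjusted p = 9.16e-06) and Ccn1 (0.73 ± 0.08, adjusted p = 0.00249) rose, and Postn (periostin) fell at least 1.08-fold. Postn was detected on 3 controls and no FGF2 array, with mean log2 signals of 7.37 and 7.21 and a change of -1.46 with the robust spread. It passed the filter only through the controls, which favoured a fall in advance. Its adjusted p of 0.00552 in limma is therefore not independent support for the fall. Of 5 large proteoglycans and hyaluronan partners 4 fell and 0 rose, namely Prg4 (lubricin, -0.99 ± 0.07, adjusted p = 0.000846), the heparan sulfate proteoglycans Agrn (agrin, -0.73 ± 0.10, adjusted p = 0.00496) and Hspg2 (perlecan, -0.47 ± 0.09, adjusted p = 0.0121), and the hyaluronidase Hyal1 (-0.20). No other small leucine-rich proteoglycan was tested, so Dcn stood alone in its list. Of 8 other matrix glycoproteins 5 fell, 0 rose and 3 did not pass. The sushi-repeat genes Srpx (-1.74 ± 0.11, adjusted p = 0.000552) and Srpx2 (-1.61 ± 0.16, adjusted p = 0.00172) and the laminin chain Lamb2 (-0.96 ± 0.11, adjusted p = 0.00235) fell furthest among them. With the robust spread the change of Srpx was -2.57.

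Genes that act on the members before or after secretion were the last groups compared. Of 4 tested genes of chondroitin and dermatan sulfate synthesis, which make the chains on versican and decorin, 1 fell (Pxylp1, a xylose phosphatase of linker synthesis, -0.45 ± 0.11, adjusted p = 0.0282) and 3 did not pass. The median of this list was -0.10. Of 6 tested receptors, Cd47, which binds thrombospondins, rose (0.55 ± 0.06, adjusted p = 0.00203), Glb1, whose splice form is known as an elastin-binding protein, fell by 0.16 (adjusted p = 0.0455) and 3 did not pass. Glb1 did not pass with the robust spread (adjusted p = 0.226). The integrin subunit Itga6 was undetected on the controls and passed the filter only through the FGF2 arrays, which favoured a rise in advance. Its mean log2 signals were 7.19 and 7.62, a rise of at least 1.28-fold, and with the robust spread the change was 2.52. Its adjusted p of 0.0135 in limma is therefore not independent support for the rise.

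**Figure D4:**
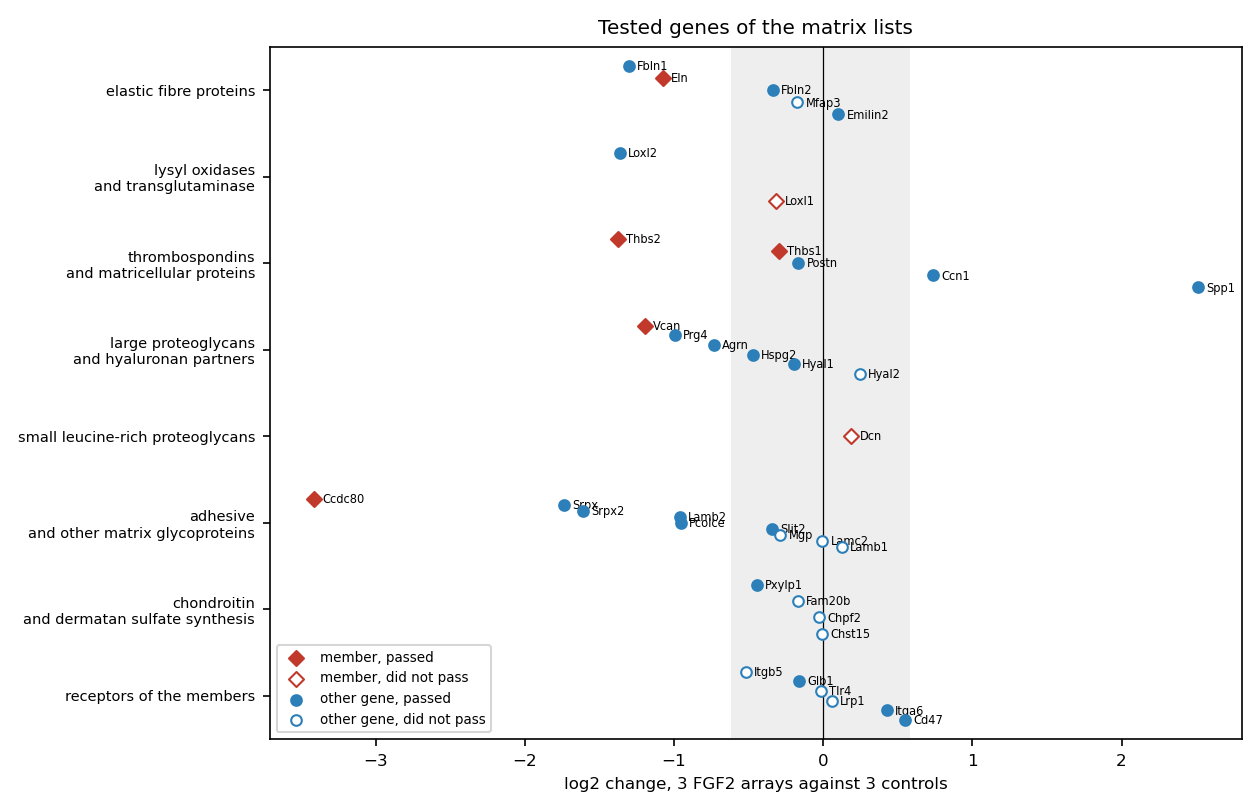
Each symbol is 1 tested gene, placed on the x axis by its log2 change of the 3 FGF2 arrays against the 3 controls and on the y axis by role; diamonds are the members, circles the other genes, filled symbols passed the adjusted p of 0.05 and the grey band spans the 5th to 95th percentile of all tested probes. Ccdc80 (-3.41) is the lowest point and Spp1 (2.51) the highest, and Dcn, shown by its brighter probe, is alone in its list.

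The genes most like each member across the 6 arrays were found by the root mean square difference of centred log2 signals among 3474 other named genes. Nearest to Ccdc80 were Timp3 (difference 0.23), Ptx3 (0.32) and Lpar4 (0.44), and nearest to Thbs2 were Sspn (0.10), Acaa1b (0.10) and Cpxm1 (0.11). Vcan was nearest to Vcam1 (0.11), Fbln1 (0.11) and Cxcl1 (0.13), and Eln to Lamb2 (0.12), Cxcl14 (0.14) and Gga2 (0.14). Of these genes, Fbln1 and Lamb2 were genes of the matrix lists. The small changes of Thbs1, Dcn and Loxl1 placed them nearest to Tmem42 (0.03), Stk24 (0.03) and Phf11d (0.05), followed by Tmem254a and Lims2 for Thbs1, Calm3 and Sirt7 for Dcn, and Pcdhgb1 and Ccdc90b for Loxl1.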

How the data were processed

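Per the file headers, each of the 6 files holds a mean bead signal per probe, an intensity summarised with BeadStudio 1.0 (per the submitters' processing notes), neither background-subtracted nor normalised, and a detection score, a fraction that ranks the probe among the negative controls. From 300 ng of RNA, amplified for 6 h, Cy3-labelled material was hybridised to 1-colour Illumina arrays, per the labels. The authors' deposited table, also an intensity, has treated columns that are linear in the signal (Pearson r = 1 across probes) and a control column that is a mean, per the labels; its scaling and centring are not given in the sources used here. Its medians over the values not blank are 255 for the control column and 285, 277 and 280 for 4, 13 and 40 ng/ml.

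Signals were corrected and quantile-normalised with neqc (offset 16) in limma 3.58.1 (R 4.3.3). Tests were two-sided (lmFit and eBayes, with Benjamini-Hochberg over 11763 probes, threshold 0.05). The procedure was run on simulated data with the spread of the controls and, per changed probe, the same shift on every FGF2 array. Differences between doses were not simulated. Symbols come from RefSeq (GRCm38.p6), matched for 9832 probes. With several probes, the brightest stood for a gene outside the members. Named genes were the members, up to 3 called genes with the largest change per list, and the 3 nearest in pattern; Hyal1 was named after its value was seen. Members and lists were chosen with earlier results of these data known. The number of arrays limits the precision. Bead standard deviations were not analysed here.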

Additional observations from a re-analysis of the deposited data

How the results depend on the processing

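No member probe changed direction under any alternative. No paired analysis was possible because only the control has more than 1 replicate. With 1 array left out, 4 to 6 of the 9 member probes passed over all doses in place of 7, the lowest count without the 13 or the 40 ng/ml array. Without 1 control, 2 to 3 passed at 4 ng/ml in place of 3, and 3 to 5 in place of 5 at both 13 and 40 ng/ml, the lowest without control replicate 1. The share of all tested probes at a single dose was not taken in these fits. Leaving out 1 array gave 2598 (without 40 ng/ml) to 4899 called probes in place of 4327, and 14 to 21 called genes of the lists in place of 20. In these fits the change of Thbs2 minus that of Thbs1 was -1.22 to -0.99 on the log2 scale.

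At 4 ng/ml the count of 3 became 7 without further background correction and with normexp (offset 50). It became 6 with normexp (offset 16) and with a trended robust prior, and 5 with the robust control spread, an alternative chosen after seeing the data. Over all doses, 4789 to 4991 of the 11763 tested probes were called under these settings, in place of 4327. At a single dose the share of all tested probes was not taken under any alternative, so these counts are not a result about the members. Scaling to the same median left 2 in place of 3 at 4 ng/ml and 3 in place of 5 at 13 and at 40 ng/ml. Thbs1 then did not pass at 4, 13 or 40 ng/ml (adjusted p = 0.105, 0.0659 and 0.0648 in limma). Nor did the dimmer Vcan probe pass at 13 or 40 ng/ml (adjusted p = 0.0659 and 0.0577 in limma). With this scaling 37.9% of called probes over all doses were higher in place of 50.1%. The cause of these shifts was not tested. Without the filter on dim probes 16 of the 58 list genes with a named probe passed, in place of 20 of 31. Over all probes 3537 of 46116 then passed, in place of 4327 of 11763. Probes near the background, such as Eln with FGF2, have sizes that the signal over background limits. With an array left out, the normalisation and filter were kept from all 6 arrays.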
